A study of Rattus norvegicus with 6 samples.

Results

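CXC and CX3C chemokines are small secreted or membrane-anchored proteins, named for the spacing of the first cysteines near the amino terminus, that guide leukocytes bearing matching G protein-coupled receptors into tissue. The group examined here consisted of Cxcl1, Cxcl2, Cxcl9, Cxcl10, Cxcl11, Cxcl12, Cxcl13, Cxcl14, Cxcl16 and Cx3cl1, chosen by gene symbol from the table of read counts. All 10 symbols matched exactly 1 row each of the 26195 rows that carry a gene name. In mammary tumors, CXCL1 and CXCL2 are known for drawing neutrophils through CXCR2, CXCL9, CXCL10 and CXCL11 for drawing activated T and natural killer cells through CXCR3, and CXCL12 for retaining cells that carry CXCR4. CXCL16 and CX3CL1 (fractalkine) sit in the membrane on a mucin-like stalk, bind CXCR6 and CX3CR1, respectively, and are released by the metalloproteinases ADAM10 and ADAM17.

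The transcripts were measured by bulk RNA-seq in 6 mammary tumors of female Fischer 344 (F344) rats. Tumors 102, 107 and 116 had arisen in older animals and tumors 157, 158 and 167 in younger animals, 3 of each. Every rat of both groups had been implanted with a 50 mg pellet of MPA, a progestin, and received a single gavage of the carcinogen DMBA at 65 mg per kg 1 week later. The older rats were 21 to 23 months old at that time and the younger rats 4 months old. The younger tumors were all that had formed in that group, the older ones were those with enough tissue, and the age groups came from different suppliers, so age and source of the rats cannot be told apart. Each tumor gave 1 library, and p-values therefore measure the spread between tumors.

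The 6 libraries held between 3508571 and 6525830 reads assigned to genes. Levels are given as CPM, a read count scaled to the size of its library with edgeR's TMM factors, and a gene with 3 reads, taken as the floor, corresponded to between 0.528 and 1.03 CPM. Epcam, an epithelial marker, lay between 299 and 496 CPM in the 6 tumors, so the marker was detected in every tumor. Tumor 102 stood apart from the other 5 on the first principal component, which held 40.7% of the variance, and chemokine results that rest on it are also given without it.

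Of the 10 chemokines, 9 had enough reads to be tested between age groups, and Cxcl11 did not. Going by direction only, 5 of these 9 had a higher and 4 a lower level in older tumors, where 49.6% of all 13139 genes tested were higher. Their median log2 fold change was 0.08 against -0.0038 over all genes tested. With edgeR's quasi-likelihood test, 0 of the 9 passed an adjusted p of 0.05, as did 0 of all genes tested (0%). At an unadjusted p under 0.05 there was 1 of the 9, Cxcl16, where 8.59% of all genes tested (1129 genes) fell under that value. Cxcl16 was also the 1 chemokine whose older and younger tumors did not overlap, a separation seen in 12.1% of all genes tested (6.51% higher and 5.58% lower in older tumors). Both counts, 1 of 9, are too small to be set apart from these shares. DESeq2, the tool named in the study's methods, passed 1 chemokine at an adjusted p of 0.05, again Cxcl16, against 2.47% of the genes to which it gave an adjusted p (1.67% higher in older tumors). Limma-voom passed 0 chemokines at that threshold and 1 of 9 at an unadjusted p under 0.05, where 6.76% of all genes fell. With 1 tumor left out, edgeR put 3 of 9 chemokines under an unadjusted p of 0.05 without tumor 102 (7.28% of all genes) and 2 of 9 without tumor 116 (10.6%). It put 1 of 9 there without tumor 107 (8.28%), 157 (5.85%), 158 (8.83%) or 167 (8.28%).

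**Figure D1:**
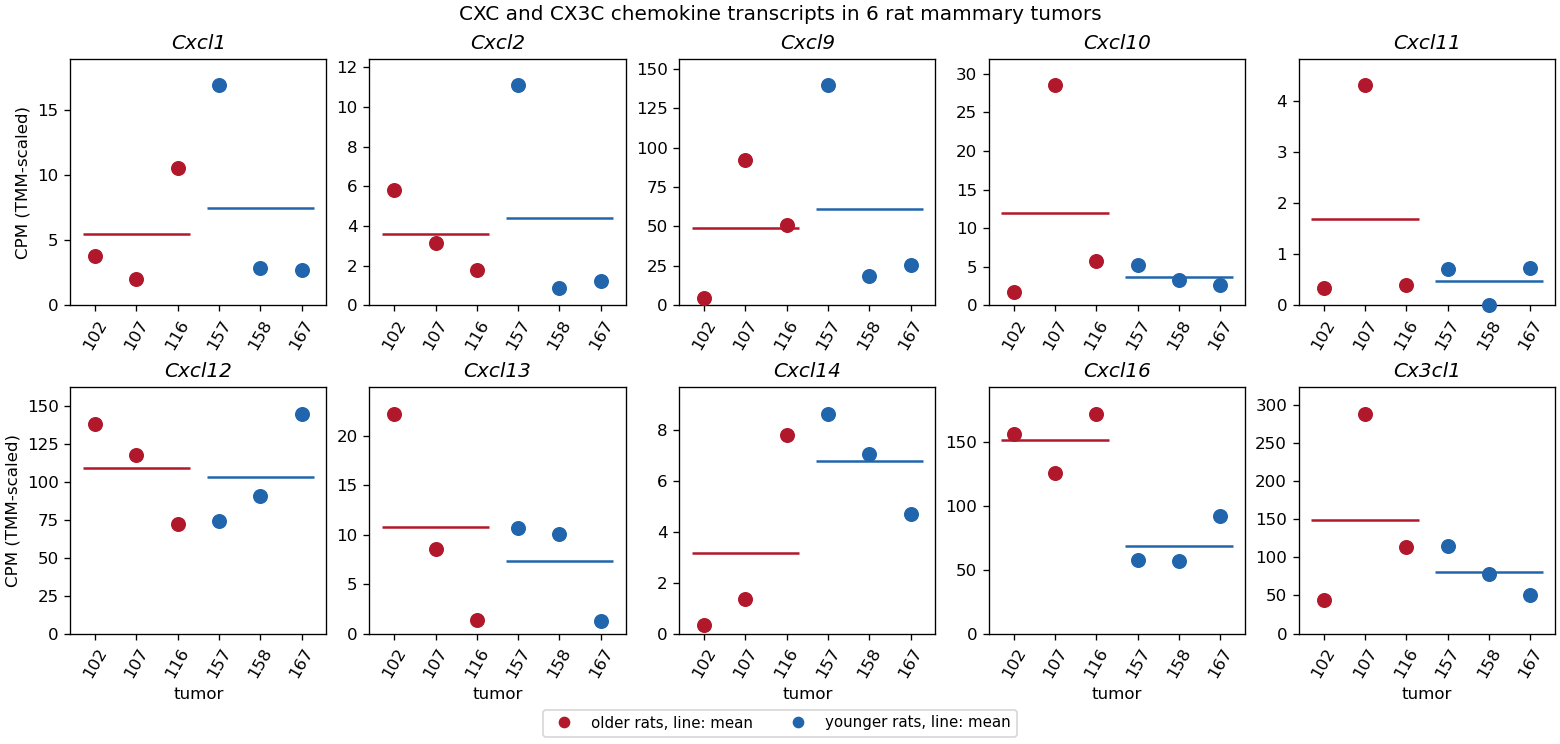
Level of each chemokine (CPM, TMM-scaled, linear axis from 0) in each tumor, with older tumors in red, younger tumors in blue and a line at the mean of each group of 3. Cxcl16 is the panel in which all red points lie above all blue points, while Cxcl10 and Cxcl11 peak in tumor 107 and Cxcl1, Cxcl2 and Cxcl9 in tumor 157.

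Cxcl16, which encodes the membrane-anchored ligand of CXCR6 and also acts as a scavenger receptor for oxidized lipoprotein on macrophages, was at 157 CPM in tumor 102, 126 CPM in tumor 107 and 173 CPM in tumor 116, the older tumors. Among the younger tumors it was at 57.7 CPM in tumor 157, 56.7 CPM in tumor 158 and 92.2 CPM in tumor 167. All 3 older tumors thus lay above all 3 younger ones. The lowest older value (tumor 107) had a 95% Clopper-Pearson interval of 116 to 137 CPM and the highest younger value (tumor 167) one of 83.1 to 102 CPM, intervals that cover counting error only. The mean was 152 ± 23.8 CPM (SD, n = 3) in older and 68.9 ± 20.2 CPM (SD, n = 3) in younger tumors. The log2 fold change was 1.14 (standard error 0.28), a 2.21-fold higher level, with an unadjusted p of 0.00376 and an adjusted p of 0.315 in edgeR's quasi-likelihood test. Leaving out each tumor in turn kept the log2 fold change between 1.02 and 1.40. DESeq2 gave 1.13 (standard error 0.33) with an adjusted p of 0.031.

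The 250 bases that precede the Cxcl16 start in the RefSeq promoter table (assembly GRCr8, chr10:55669951-55670200, minus strand) are shown because this gene carried the clearest difference by age, and they are written in lower case throughout since none of the motifs searched was found in them. All 10 chemokines matched an entry of that table, and the motifs were looked for on both strands, in the window from 250 bases before to 50 bases after each start.
Cxcl16: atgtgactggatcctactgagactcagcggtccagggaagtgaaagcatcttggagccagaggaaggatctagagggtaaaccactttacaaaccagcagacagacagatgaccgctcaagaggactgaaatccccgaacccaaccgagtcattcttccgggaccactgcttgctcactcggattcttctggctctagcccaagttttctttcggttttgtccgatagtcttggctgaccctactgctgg
The motifs were the core of an interferon-stimulated response element (GAAA, any 2 bases, GAAA), a gamma-activated sequence (TTC, any 3 bases, GAA, the same on both strands) and an NF-kB type site (GGG, any 3 bases, TTCC). Of 33469 promoters in the table, 3.92% held the first, 8.87% the second and 5.37% the third. A match describes the letters alone and is not evidence of a bound site.

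Macrophage markers had higher levels in older tumors, but their order among those tumors was not that of Cxcl16. The summed level of 8 macrophage markers was 324, 420 and 239 CPM in tumors 102, 107 and 116. It ran from 116 to 177 CPM in younger tumors. Tumor 107, the highest for 6 of the 8, was the lowest older tumor for Cxcl16. All 8 had positive log2 fold changes with a median of 1.18. For 3 of the 8 all older tumors lay above all younger ones, as for 6.51% of all genes tested. An unadjusted p under 0.05 (edgeR) was reached by 4 of the 8, where 5.3% of all genes tested were higher in older tumors, although 0 passed the adjusted threshold. That count of 4 was 6 without tumor 102, 2 without tumor 107 and 1 without tumor 167. Cd68, a lysosomal glycoprotein of macrophages, was at 73.0, 81.9 and 34.7 CPM in tumors 102, 107 and 116 and at 32.4, 21.1 and 20.6 CPM in tumors 157, 158 and 167. Its log2 fold change was 1.35 (edgeR adjusted p = 0.342, standard error 0.38). Csf1r, the receptor for macrophage colony-stimulating factor, had a log2 fold change of 1.13 (edgeR adjusted p = 0.425, standard error 0.38), also without overlap between the groups, and 0.70 without tumor 107. The part of these cells in the Cxcl16 level was not tested. In bulk tissue, fewer cells of a type and less RNA per cell cannot be told apart.

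Cxcr6, the receptor for CXCL16 on T and natural killer cells, was at 45.6, 32.1 and 28.7 CPM in tumors 102, 107 and 116 and at 19.2, 35.1 and 24.1 CPM in tumors 157, 158 and 167. The groups overlapped, and the log2 fold change was 0.44 (edgeR adjusted p = 0.822, standard error 0.33), or 0.21 without tumor 102. Adam10, which sheds both membrane-anchored chemokines, lay between 205 and 255 CPM in older and between 207 and 342 CPM in younger tumors, a log2 fold change of -0.27 (edgeR adjusted p = 0.884, standard error 0.27). Adam17, the other sheddase, had a log2 fold change of -0.09 (edgeR adjusted p = 0.968, standard error 0.26). Neither sheddase differed beyond the spread between tumors.

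Cx3cl1, whose product is made by endothelial and epithelial cells and tethers monocytes, was at 44.2 CPM in tumor 102, 289 CPM in tumor 107 and 114 CPM in tumor 116. The younger tumors had 115 CPM (tumor 157), 78.7 CPM (tumor 158) and 50.6 CPM (tumor 167). Tumor 107 had the highest and tumor 102 the lowest level, both from older rats, so the older tumors spanned the whole younger range. The log2 fold change was 0.87 (edgeR adjusted p = 0.816, standard error 0.63), and it depended on those tumors: it was -0.037 without tumor 107 and 1.30 (unadjusted p = 0.0325) without tumor 102. Cx3cr1, its receptor on monocytes, macrophages and cytotoxic lymphocytes, was at 12.3, 48.7 and 28.5 CPM in tumors 102, 107 and 116 and at 21.0, 11.9 and 10.3 CPM in tumors 157, 158 and 167, so tumor 107 was highest for ligand and receptor alike. Its log2 fold change was 1.05 (edgeR adjusted p = 0.67, standard error 0.52) and stayed between 0.51 and 1.42 with each tumor left out.

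**Figure D2:**
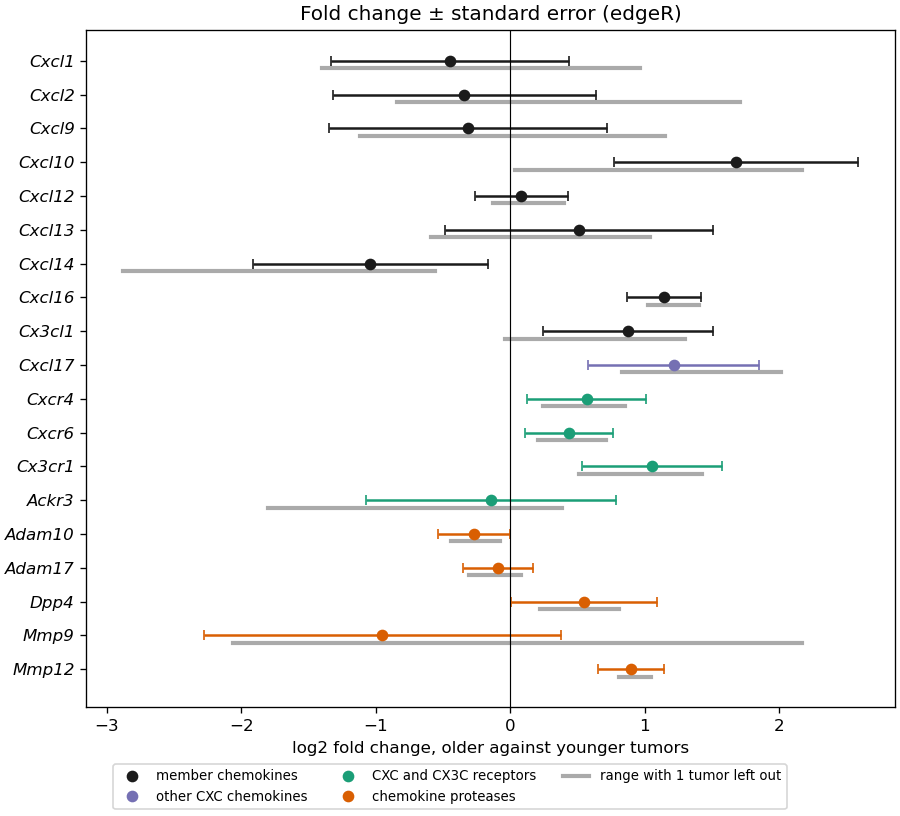
Log2 fold change (older against younger tumors, horizontal axis) of the 9 tested chemokines and of the tested receptors, proteases and other CXC chemokines; points and whiskers give the estimate and its standard error, grey bars the range when 1 tumor is left out. The grey bar of Cxcl16 runs from 1.02 to 1.40, while those of Cxcl1, Cxcl2, Cxcl9, Cxcl12, Cxcl13 and Cx3cl1 cross 0.

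Cxcl9, Cxcl10 and Cxcl11 encode the interferon-inducible ligands of CXCR3. In the GRCr8 assembly they lie close together on chromosome 14, and the 250 bases before each start are shown because these transcripts are textbook targets of interferon gamma and NF-kB; capitals mark the motifs searched.
Cxcl9: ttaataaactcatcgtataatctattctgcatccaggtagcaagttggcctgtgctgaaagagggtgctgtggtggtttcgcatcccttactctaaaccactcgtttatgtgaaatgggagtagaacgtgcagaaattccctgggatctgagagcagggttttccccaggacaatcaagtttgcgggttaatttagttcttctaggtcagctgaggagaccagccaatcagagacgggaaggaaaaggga
Cxcl10: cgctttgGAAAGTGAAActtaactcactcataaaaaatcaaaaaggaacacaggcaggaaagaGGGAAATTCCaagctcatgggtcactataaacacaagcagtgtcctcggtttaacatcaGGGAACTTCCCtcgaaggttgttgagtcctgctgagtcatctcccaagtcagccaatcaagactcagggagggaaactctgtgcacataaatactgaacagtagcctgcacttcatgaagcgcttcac
Cxcl11: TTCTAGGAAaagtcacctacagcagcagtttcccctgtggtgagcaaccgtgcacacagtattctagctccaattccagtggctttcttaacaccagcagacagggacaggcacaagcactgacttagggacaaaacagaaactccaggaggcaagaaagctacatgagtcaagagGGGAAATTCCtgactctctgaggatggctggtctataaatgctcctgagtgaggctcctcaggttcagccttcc
The stretches lie at chr14:16006916-16007165, plus strand (Cxcl9), chr14:15988816-15989065, plus strand (Cxcl10) and chr14:15973478-15973727, plus strand (Cxcl11). Cxcl10 was the 1 chemokine of the 10 with the interferon-stimulated response element core, beginning 243 bases before the start, and it also held NF-kB type sites beginning 187 and 128 bases before it, the second of these matching on both strands at overlapping positions. Cxcl11 held a gamma-activated sequence at 250 and an NF-kB type site at 74 bases before its start. Cxcl9 held a gamma-activated sequence beginning at base 33 after its start, outside the letters shown.

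Cxcl10 was at 1.71 CPM in tumor 102, 28.5 CPM in tumor 107 and 5.78 CPM in tumor 116. Among younger tumors it was at 5.28 CPM (tumor 157), 3.24 CPM (tumor 158) and 2.70 CPM (tumor 167). Tumor 107 stood alone, with 126 reads and a 95% Clopper-Pearson interval of 23.8 to 34.0 CPM, while older tumor 102 was the lowest of all. The mean was 12 ± 14.4 CPM (SD, n = 3) in older and 3.74 ± 1.36 CPM (SD, n = 3) in younger tumors. The log2 fold change of 1.68 (edgeR adjusted p = 0.713, standard error 0.91) was the largest among the tested chemokines, but it was 0.04 without tumor 107 and 2.17 (unadjusted p = 0.0187) without tumor 102. The groups overlapped, and the difference did not exceed the spread between older tumors.

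Cxcl11 was close to the floor. It had 1, 19 and 2 reads in tumors 102, 107 and 116 and 4, 0 and 3 reads in tumors 157, 158 and 167, and it was not tested. The count of 0 in tumor 158 allows up to 0.54 CPM by the floor of 3 reads. Tumor 107, at 4.30 CPM, was again the highest.

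Cxcl9 followed another order. It was at 4.46 CPM in tumor 102, 92.3 CPM in tumor 107 and 50.6 CPM in tumor 116, and at 139 CPM in tumor 157, 18.9 CPM in tumor 158 and 25.6 CPM in tumor 167. The highest level was thus in a younger tumor and the lowest in an older one, and the span from highest to lowest was 31.3-fold. The log2 fold change was -0.31 (edgeR adjusted p = 0.974, standard error 1.03); it was 0.22 without tumor 102, 1.15 without tumor 157 and -1.12 without tumor 107. Cxcr3, the shared receptor, had 2, 16 and 13 reads in tumors 102, 107 and 116 and 3, 2 and 7 reads in tumors 157, 158 and 167, too few to be tested. Dpp4, a protease that trims the amino terminus of these ligands, had a log2 fold change of 0.55 (edgeR adjusted p = 0.881, standard error 0.54).

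Transcripts of the interferon gamma pathway were also high in tumor 107. Ifng itself, picked after its values were seen, had 5 reads in tumor 107 and 0 in each of the other 5 tumors. Of the 15 genes of an interferon gamma pathway list that had a row, 9 were highest in tumor 107. These include Ifng and Ido1 (7 reads there, 0 elsewhere, also picked after its values were seen), both below the filter. The share of all genes that peaked in each tumor was not counted, here or for the other lists. Ciita, the transactivator of MHC class II genes, was at 10.6, 57.5 and 15.0 CPM in tumors 102, 107 and 116 and at 5.99, 1.44 and 2.46 CPM in tumors 157, 158 and 167. All 3 older tumors lay above the younger ones, with a log2 fold change of 3.06 (edgeR adjusted p = 0.334, standard error 0.81), or 1.95 without tumor 107. DESeq2 gave Ciita an adjusted p of 0.0076. Ifngr2, a chain of the interferon gamma receptor, had a log2 fold change of 0.94 (edgeR adjusted p = 0.318, standard error 0.24), without overlap. Over the 13 genes of the list tested, 0 passed the adjusted threshold, 4 were higher in older tumors at an unadjusted p under 0.05, where 5.3% of all genes tested were, and 0 were lower. The median log2 fold change of 0.86 was -0.09 without tumor 107.

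Markers of natural killer and cytotoxic T cells peaked in tumor 107 as well. All 6 were highest there, and their summed level was 562 CPM in tumor 107 against 35.7 and 18.1 CPM in older tumors 102 and 116 and 4.92 to 9.51 CPM in the younger tumors. Gzmb, which encodes the cytotoxic protease granzyme B, was at 13.7, 206 and 7.18 CPM in tumors 102, 107 and 116 and at 1.58, 3.24 and 1.47 CPM in tumors 157, 158 and 167. Its log2 fold change was 5.14 (edgeR adjusted p = 0.334, standard error 1.36), and that of Gzma, granzyme A, was 3.54 (edgeR adjusted p = 0.342, standard error 0.997), against 2.27 and 1.99 without tumor 107. All 4 tested markers of this list were higher in older tumors at an unadjusted p under 0.05, as were 5.3% of all genes tested, and 0 passed the adjusted threshold. Their median log2 fold change was 4.73, or 1.89 without tumor 107, when 2 of the 4 had such a p. Of the T cell markers, 8 of 10 had a row and 3 were tested, with 0 past the adjusted threshold and 2 under an unadjusted p of 0.05 (5 of 5 tested without tumor 102), both higher in older tumors and read against the same 5.3%. Cd8a, the coreceptor of cytotoxic T cells, was at 10.3, 74.2 and 6.78 CPM in tumors 102, 107 and 116 and at 4.58, 2.34 and 2.46 CPM in tumors 157, 158 and 167. Tumor 107 was far above the rest, and the log2 fold change, 1.43 without that tumor, was 3.27 (edgeR adjusted p = 0.361, standard error 0.95). Cd3e, a chain of the T cell receptor complex, was at 3.43, 4.30 and 5.18 CPM in tumors 102, 107 and 116 and at 1.41, 1.44 and 1.72 CPM in tumors 157, 158 and 167, so tumor 107 was not the highest for it (log2 fold change 1.498, edgeR adjusted p = 0.381, standard error 0.46). With 10, 19 and 26 reads in older and 8, 8 and 7 in younger tumors, Cd3e passed the filter only through the group where it was high. The cytotoxic markers were also low in younger tumors, so the counts of both lists set against 5.3% lean on that filter and are descriptions only. The part of these cells in the Cxcl10 and Cx3cl1 levels was not tested.

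**Figure D3:**
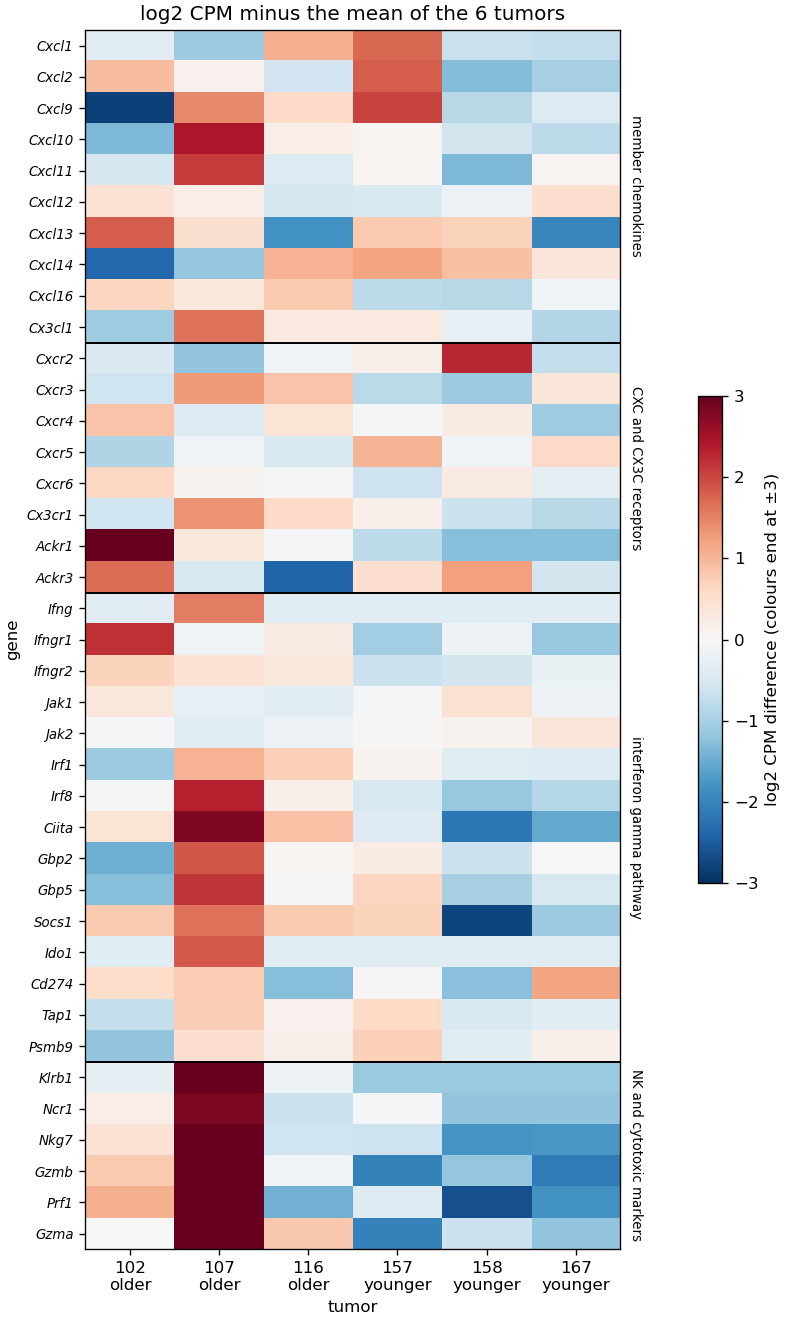
Log2 CPM of each gene minus its mean over the 6 tumors (colour, red above and blue below, ending at 3 in each direction), with tumors in columns and chemokines, receptors, interferon gamma pathway genes and cytotoxic markers in rows; genes at 0 in every tumor are left out. The column of tumor 107 is red for Cxcl9, Cxcl10, Cxcl11, Cx3cl1, Cxcr3, Cx3cr1, Ciita and all 6 cytotoxic markers.

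Type I interferon response genes had mostly lower levels in older tumors. Of 11 tested, 10 had negative log2 fold changes, with a median of -1.03, 3 were lower in older tumors at an unadjusted p under 0.05, where 3.29% of all genes tested were, and 0 passed the adjusted threshold. The median was -0.68 without tumor 102, the lowest for 8 of the 11, and -0.60 without tumor 157. The count at an unadjusted p under 0.05 (edgeR) was 4 without tumor 102, 116 or 158 and 2 without tumor 157 or 167. Rsad2, an antiviral enzyme, had a log2 fold change of -2.21 (edgeR adjusted p = 0.176, standard error 0.29) and Mx2, an antiviral GTPase, one of -1.86 (edgeR adjusted p = 0.327, standard error 0.48), and in both the groups did not overlap. DESeq2 gave an adjusted p of 1.4e-06 for Rsad2 and 0.019 for Mx2. For 7 of the 11 genes with reads tumor 157 was highest, the tumor that was also highest for Cxcl9. Isg15 was listed at 0 in every tumor. Cxcl10 was not highest in tumor 157. The part of either interferon type in the Cxcl9 and Cxcl10 levels was not tested.

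Cxcl1 and Cxcl2 encode ligands of CXCR2. Their promoters, at chr14:17479322-17479571, minus strand (Cxcl1) and chr14:17467256-17467505, minus strand (Cxcl2), are shown because both genes peaked in the same tumor; capitals mark the NF-kB type site, which was the 1 motif of the searched set found in either.
Cxcl1: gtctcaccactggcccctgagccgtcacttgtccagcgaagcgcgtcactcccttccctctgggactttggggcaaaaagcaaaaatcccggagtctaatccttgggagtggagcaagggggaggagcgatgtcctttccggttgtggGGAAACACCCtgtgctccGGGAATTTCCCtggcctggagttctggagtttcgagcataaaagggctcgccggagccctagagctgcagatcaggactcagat
Cxcl2: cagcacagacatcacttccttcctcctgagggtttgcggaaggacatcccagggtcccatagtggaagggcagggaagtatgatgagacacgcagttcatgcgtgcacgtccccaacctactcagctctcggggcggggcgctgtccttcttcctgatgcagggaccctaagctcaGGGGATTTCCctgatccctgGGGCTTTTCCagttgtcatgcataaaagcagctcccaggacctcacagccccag
In Cxcl1 the matches began 102, 84 and 83 bases before the start, the last 2 being overlapping matches on opposite strands, and in Cxcl2 they began 74 and 54 bases before it. Of the 10 chemokines, 4 held this motif, the others being Cxcl10 and Cxcl11.

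Cxcl1 was at 3.77 CPM in tumor 102, 2.04 CPM in tumor 107 and 10.6 CPM in tumor 116, and at 16.9 CPM in tumor 157, 2.88 CPM in tumor 158 and 2.70 CPM in tumor 167. Cxcl2 was at 5.83, 3.17 and 1.79 CPM in tumors 102, 107 and 116 and at 11.1, 0.901 and 1.23 CPM in tumors 157, 158 and 167. Younger tumor 157 was the highest for both, and the other 2 younger tumors were low for both. The log2 fold changes, -0.45 for Cxcl1 (edgeR adjusted p = 0.945, standard error 0.89) and -0.34 for Cxcl2 (edgeR adjusted p = 0.968, standard error 0.98), turned to 0.97 and 1.71 without tumor 157. Cxcl3, a close relative of both, had 33 reads in tumor 157, 4 in tumor 158 and 10 in tumor 167, against 0, 1 and 1 in older tumors 102, 107 and 116, so every younger tumor had more reads than every older one. It fell below the filter on low counts. Kept in a fit of all genes with at least 1 count, it had a log2 fold change of -4.06 (edgeR adjusted p = 0.307, standard error 1.13, unadjusted p = 0.00518), and DESeq2 gave -4.26 with an adjusted p of 0.102, values that rest on 2 reads in all of the older tumors. Reads of these related genes could be split between copies. Cxcl6, with 8 reads or fewer in each tumor, Pf4, with 3 or fewer, and Ppbp, at 0 in every tumor, were not detectable at a useful depth.

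Neutrophil transcripts had few reads in these libraries. Cxcr2, the receptor on neutrophils, had 38 reads (6.84 CPM) in tumor 158 and 7 reads or fewer in each other tumor, and Cxcr1 was listed at 0 throughout. Of 6 neutrophil markers 0 could be tested, and their summed level was 7.92 CPM in tumor 157 and between 0.246 and 2.94 CPM in the other 5 tumors. Of the 6, 4 were highest in tumor 157, 1 in tumor 102 and 1 in tumor 107. S100a8, a calprotectin chain, had 11 reads in tumor 157 and 0 to 5 elsewhere. Mmp9, a gelatinase stored in neutrophil granules and named with the proteases, was highest in tumor 157, at 38.2 CPM, against 15.4, 5.43 and 1.196 CPM in tumors 102, 107 and 116 and 1.44 and 1.72 CPM in tumors 158 and 167. Its log2 fold change of -0.95 (edgeR adjusted p = 0.924, standard error 1.33) was 2.17 without tumor 157. In tumor 102, the next highest for Mmp9, the neutrophil markers summed to 1.03 CPM. Il1b, the cytokine interleukin 1 beta, was at 6.16 CPM in tumor 157 and 7.01 CPM in tumor 107, and at 0 to 2.39 CPM in the others.

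Among 11 tested activators and feedback genes of NF-kB, a known activator of Cxcl1 and Cxcl2, 0 passed the adjusted threshold and 3 were higher in older tumors at an unadjusted p under 0.05 (1 without tumor 167), where 5.3% of all genes tested were. The median log2 fold change was 0.59. Tnfaip3, a deubiquitinase of the feedback loop, was at 169, 41.9 and 144 CPM in tumors 102, 107 and 116 and at 35.4, 25.4 and 17.9 CPM in tumors 157, 158 and 167, a log2 fold change of 2.17 (edgeR adjusted p = 0.315, standard error 0.53). DESeq2 gave Tnfaip3 an adjusted p of 0.0077. Nfkbia, the inhibitor of NF-kB, had a log2 fold change of 2.07 (edgeR adjusted p = 0.405, standard error 0.66), or 0.96 without tumor 102, which was highest for both genes. Of the 12 genes listed, tumor 102 was highest for 4 and tumor 157, the highest for Cxcl1 and Cxcl2, for 1, the cytokine gene Tnf (3.17 CPM). The list holds both activators and inhibitors, and the part of NF-kB in the Cxcl1 and Cxcl2 levels was not tested.

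Cxcl12, the stromal ligand of CXCR4, was the steadiest of the group. Its levels were 138, 118 and 72.0 CPM in tumors 102, 107 and 116 and 74.3, 90.4 and 145 CPM in tumors 157, 158 and 167, a span of 2.01-fold. The log2 fold change of 0.08 (edgeR adjusted p = 0.979, standard error 0.35) stayed between -0.13 and 0.40 with each tumor left out. Cxcr4, the receptor, was at 59.6, 24.4 and 43.7 CPM in tumors 102, 107 and 116 and at 31.9, 38.7 and 15.2 CPM in tumors 157, 158 and 167. Its log2 fold change was 0.57 (edgeR adjusted p = 0.836, standard error 0.44), or 0.24 without tumor 102. Ackr3, the atypical receptor that removes CXCL12, ranged from 2.59 CPM in tumor 116 to 51.1 CPM in tumor 102, with a log2 fold change of -0.14 (edgeR adjusted p = 0.985, standard error 0.93), or -1.80 without tumor 102. The groups overlapped for all 3 genes.

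Cxcl13, which encodes the B cell attractant of lymphoid follicles, was at 22.3, 8.60 and 1.40 CPM in tumors 102, 107 and 116 and at 10.7, 10.1 and 1.23 CPM in tumors 157, 158 and 167. Tumors 116 and 167 were low, 1 from each age group, and the log2 fold change was 0.51 (edgeR adjusted p = 0.945, standard error 0.997), or -0.59 without tumor 102. Cxcr5, its receptor, had 14 reads or fewer in each tumor and was not tested. None of 7 B cell and follicle markers could be tested either: Ms4a1 and Cd79b were listed at 0 throughout, and the summed level of the list was between 1.81 and 5.81 CPM. Nos3, the endothelial nitric oxide synthase, had the profile most like that of Cxcl13, with a root mean square difference of 0.29 on the centred log2 CPM scale over the 6 tumors. The summed level of 6 endothelial markers was likewise lowest in tumors 116 (112 CPM) and 167 (71.8 CPM), against 258 to 412 CPM in the other 4. The part of endothelial cells in the Cxcl13 level was not tested. Ackr1, the scavenging receptor of venular endothelium, had 24 reads in tumor 102 and 4 or fewer in each other tumor.

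Cxcl14, a chemokine of epithelium and stroma, was at 0.343, 1.36 and 7.78 CPM in tumors 102, 107 and 116 and at 8.62, 7.03 and 4.67 CPM in tumors 157, 158 and 167. Older tumors 102 and 107 lay below every younger tumor, and older tumor 116 lay among them. The log2 fold change of -1.04 (edgeR adjusted p = 0.851, standard error 0.87) was -2.88 (unadjusted p = 0.00678) without tumor 116 and -0.56 without tumor 102. The single read in tumor 102 left its level there below the floor. Of 8 epithelial markers 6 were tested, and all 6 had negative log2 fold changes, with a median of -0.64, 0 passed the adjusted threshold and 0 an unadjusted p of 0.05 (2 without tumor 107, 1 without tumor 116 or 158). Their summed level was 1189, 1575 and 1456 CPM in tumors 102, 107 and 116 and 2587, 1938 and 1997 CPM in tumors 157, 158 and 167. Tumor 107 thus lay above tumor 116, the reverse of their order for Cxcl14. The part of epithelial cells in the Cxcl14 level was not tested.

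Cxcl17, a mucosal CXC chemokine outside the listed group, was at 24.3, 9.73 and 28.9 CPM in tumors 102, 107 and 116 and at 6.87, 16.6 and 3.44 CPM in tumors 157, 158 and 167. The groups overlapped, and its log2 fold change was 1.22 (edgeR adjusted p = 0.696, standard error 0.64). Mmp12, a macrophage metalloelastase that cleaves chemokines, was at 79.9, 55.2 and 79.6 CPM in tumors 102, 107 and 116 and at 41.4, 36.8 and 37.1 CPM in tumors 157, 158 and 167. As with Cxcl16, all 3 older tumors lay above the younger ones, and the log2 fold change was 0.90 (edgeR adjusted p = 0.342, standard error 0.24), between 0.81 and 1.05 with each tumor left out. Among the 5 proteases it was the 1 with an unadjusted p under 0.05, and of the 4 receptors tested 0 had one, counts too small to be set apart from the 8.59% of all genes tested.

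**Figure D4:**
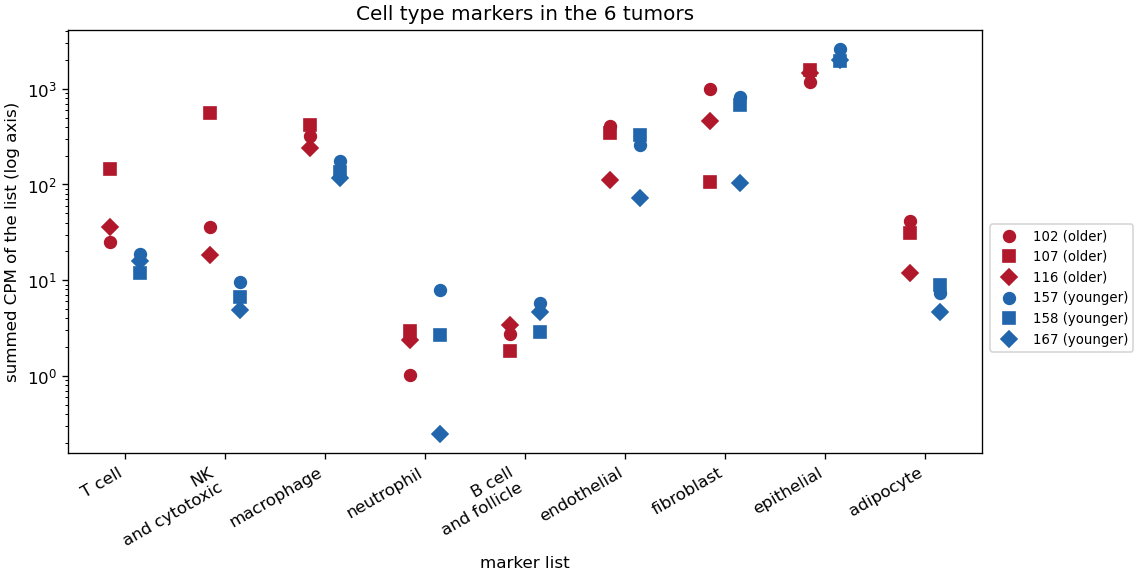
Summed CPM (log axis) of each list of cell type markers in each tumor, with older tumors in red, younger tumors in blue and a symbol per tumor. The macrophage list lies between 239 and 420 CPM in older and between 116 and 177 CPM in younger tumors, and the cytotoxic list reaches 562 CPM in tumor 107.

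Most of the chemokines varied widely over the 6 tumors. The standard deviation of log2 CPM over the 6 tumors exceeded the median of all genes tested, 0.45, for 8 of the 9 tested chemokines and was just below it for Cxcl12, at 0.44. It was 1.75 for Cxcl9, a value above 98.2% of all genes tested, 1.54 for Cxcl13, 1.44 for Cxcl14 and 1.31 for Cxcl10. Cxcl16 had 0.70, above 73.1% of all genes tested. These values hold the difference between ages as well. Within older and within younger tumors, respectively, the standard deviation was 2.24 and 1.54 for Cxcl9 and 1.84 and 1.56 for Cxcl13. It was 1.89 and 0.45 for Cxcl10, 1.725 and 0.42 for Cxcl14, and 0.23 and 0.39 for Cxcl16. Genes with few reads spread more on this scale, and Cxcl1, Cxcl2, Cxcl10, Cxcl13 and Cxcl14 were among these. Tumor 157 was highest for 4 of the 10 chemokines, tumor 107 for 3, and tumor 102 was lowest for 4, so the extremes did not follow age.

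The profile over the 6 tumors was compared with those of the other tested genes, as a description. Cx3cl1 was among the genes most like Cxcl10, at rank 8 of 13138 genes with a root mean square difference of 0.38 on the centred log2 CPM scale, both peaking in tumor 107. Above it stood Atp2b4, a plasma membrane calcium pump (0.21), Slc24a3, a sodium, potassium and calcium exchanger (0.23), and Ccdc69 (0.23). The profile most like that of Cxcl9 was Il1b (0.37), and that most like Cx3cl1 was P2ry6 (0.24), a receptor for UDP on myeloid cells. For Cxcl16 these were Gnb1l (0.15), AABR07051787.1 (0.16) and Stx11 (0.17), a syntaxin of cytotoxic granule release, and for Cxcl12 Camk2d (0.07), a calcium and calmodulin-dependent kinase. With 6 libraries that differ in cell makeup, such likeness is shared by many genes.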

How the data were processed

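Bulk RNA-seq was measured in 6 tumors, each a single library. The authors removed ribosomal RNA (the labels name polyA RNA and reads of 100 bases, the protocol reads of 150 bases), trimmed with Trimmomatic 0.38, aligned with Star 2.7.9a, marked duplicates with Picard 2.18.12, counted with HTSeq 0.13.5 (build mRatBN7.2, per the submitters' processing notes) and deposited raw read counts per gene. The annotation, the strand setting and whether marked duplicates were counted are not given in the sources used here, so reads of overlapping antisense genes cannot be told apart.

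Rows without a gene name (4367 of 30562, 2.17% to 3.64% of reads) were left out. Genes were kept by edgeR's filterByExpr, which left 13139, scaled by TMM, and compared with edgeR's quasi-likelihood test (R 4.3.3, edgeR 4.0.16, limma 3.58.1, DESeq2 1.42.0) without covariates, with Benjamini-Hochberg adjustment over all genes tested and a threshold of 0.05. Standard errors came from the F statistic, and log2 CPM used a prior count of 2. The fit was tested on simulated data. Totals of 3508571 to 6525830 counts set the precision of low genes.

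The chemokines and gene lists were chosen with earlier results of these data known. Named were the 10 chemokines, the other CXC chemokines, receptors and proteases, the 2 genes of smallest p of each other list, and for each tested chemokine the 3 genes of at least 1 CPM with the most similar profile, of which some are printed. Ifng, Ido1, S100a8, Il1b, Tnf, Isg15, Ms4a1 and Cd79b were named with their values known. Levels were not compared between genes, since lengths were not used. Promoters came from RefSeq, assembly GRCr8, matched by symbol. Alternatives were DESeq2's size factors, library totals, DESeq2, limma-voom, 2 filters, leaving out the 10 most abundant genes, another prior count and leaving out each tumor.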

Additional observations from a re-analysis of the deposited data

How the results depend on the processing

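No paired analysis was possible because every tumor is from another rat and no replicate number is common to both ages. DESeq2 passed 353 genes and 1 chemokine (Cxcl16) where edgeR passed 0 and 0 (1129 genes and 1 chemokine at an unadjusted p under 0.05), and the cause was not tested. Of the genes of other lists that edgeR tested, DESeq2 passed 2 of 11 type I interferon genes, 2 of 4 cytotoxic markers and 1 of 3 T cell markers. It passed 1 of 13 interferon gamma genes, 1 of 11 NF-kB genes and 0 of 8 macrophage markers. Over all genes to which DESeq2 gave an adjusted p, 2.47% passed. The cytotoxic and T cell counts lean on the filter, as stated above, and are descriptions only. The count of chemokines at an unadjusted p under 0.05 ran from 1 to 3 with 1 tumor left out, adding Cxcl10 and Cx3cl1 without tumor 102 and Cxcl14 without tumor 116. Their median log2 fold change, 0.08, ran from -0.13 to 1.02, the latter without tumor 157. Signs turned for Cxcl12 with library totals (-0.046) and for Cxcl2 (0.27) and Cxcl13 (-0.041) with limma-voom. With 1 tumor left out, values ran from -1.40 to 0.97 for Cxcl1, -0.84 to 1.71 for Cxcl2, -1.12 to 1.15 for Cxcl9, -0.13 to 0.40 for Cxcl12, -0.59 to 1.04 for Cxcl13, -0.037 to 1.30 for Cx3cl1, -1.80 to 0.39 for Ackr3, -0.31 to 0.079 for Adam17 and -2.06 to 2.17 for Mmp9. Cxcl10, Cxcl14 and Cxcl16 kept their sign in all these fits. Keeping unnamed rows, an alternative chosen after seeing the data like the leave-out values of the lists, changed no call. Depth limits Cxcl11, Cxcl3 and most neutrophil and B cell markers.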

Other observations

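Stromal markers varied between tumors of both ages. Dcn, which encodes the matrix proteoglycan decorin, was at 167, 2.26 and 63.0 CPM in older tumors 102, 107 and 116 and at 25.4, 26.7 and 4.18 CPM in younger tumors 157, 158 and 167, so tumor 107, the highest for Cxcl10, had the lowest level. Its log2 fold change was 2.03 (edgeR adjusted p = 0.754, standard error 1.202), and that of Pdgfra, a receptor of fibroblasts, was 1.79 (edgeR adjusted p = 0.789, standard error 1.18). Without tumor 102, the highest for both, these were 0.79 and 0.40. Of the 6 fibroblast markers tested, 3 were higher and 3 lower by sign and 0 had an unadjusted p under 0.05 (3 without tumor 107). Among 6 endothelial markers, with a median of 0.17, 1 had an unadjusted p under 0.05, where 8.59% of all genes tested did. This was the angiopoietin receptor Tek (log2 fold change 1.38, edgeR adjusted p = 0.492, standard error 0.51), and the count was 0 without tumor 102, 107, 157 or 158 and 2 without tumor 116. Pecam1, an endothelial adhesion molecule, had a log2 fold change of 1.25 (edgeR adjusted p = 0.764, standard error 0.76). Without tumor 102 the values were 0.87 for Tek and 0.51 for Pecam1. Of 4 adipocyte markers 2 were tested, Cidec (log2 fold change 1.30, edgeR adjusted p = 0.661, standard error 0.64) and Plin1 (log2 fold change 1.57, edgeR adjusted p = 0.71, standard error 0.84), both proteins of lipid droplets. Plin1 was at 17.8 CPM in tumor 102 and at 2.19 to 2.72 CPM in the others, and its log2 fold change without tumor 102 was -0.016. Of the epithelial markers, Krt17, a basal keratin, and Epcam had log2 fold changes of -1.32 and -0.51 (standard errors 0.58 and 0.24, adjusted p = 0.59 and 0.636, edgeR), and Krt17 one of -2.15 without tumor 107.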
